A study of Sus scrofa with 27 samples.

Results

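The Krüppel-like factors (KLF) examined here are 9 zinc finger transcription factors of the pig lung, KLF2, KLF3, KLF4, KLF5, KLF6, KLF7, KLF10, KLF11 and KLF13. They were chosen by name among the 31908 Ensembl genes of the count table, and a factor with under 10 counts in every library would have been dropped. All 9 were found and none was dropped, with the lowest count of any of them in any library being 81, for KLF7. The study asked whether adding a dialyzer to ex vivo lung perfusion (EVLP), in which a procured lung is ventilated and perfused outside the body before transplantation, changes the response of the tissue over 12h. RNA was sequenced from lung biopsies of 9 Large-White pigs, each sampled at 0h (after cold ischemia, before EVLP), 6h and 12h, which gives 27 libraries. In the Gold Standard group (GS, 5 pigs, numbered 9, 17, 44, 55 and 77) part of the Steen perfusate was exchanged at intervals according to the Toronto protocol. In the Pediatric Dialysis group (PD, 4 pigs, numbered 2, 3, 4 and 5) a pediatric dialysis membrane was placed on the circuit instead.

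Both groups share the non-heart-beating donor model, the acellular Steen perfusate and its methylprednisolone, cefuroxime and heparin, and there was no lung kept without perfusion beyond 0h, so time on the circuit, time since procurement and the drugs cannot be told apart in a comparison with 0h. The age and sex of the pigs are not given in the sources used here. RNA was extracted by one of 2 kits, and which library had which kit is not given.

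Krüppel-like factors bind GC-rich and CACCC sequences through their C-terminal zinc fingers, and members either activate or repress transcription depending on the cofactors bound by their differing N-terminal parts. KLF2 and KLF4 are known as flow-responsive factors of the endothelium: laminar shear stress raises them through the kinases MEKK3 and ERK5 and the factor MEF2, and they in turn keep the vessel wall anticoagulant and quiet. KLF10 and KLF11 were first described as early genes of transforming growth factor β (TGF-β), KLF5 and KLF6 are induced on injury in epithelium and other cells, and KLF13 and KLF11 recruit the SIN3A corepressor.

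The sequences upstream of KLF2, KLF4 and KLF6 are shown because MEF2 is the known step between flow and the first pair, and because the MEF2 consensus lies upstream of KLF2 and KLF6 but not of KLF4 in this window. Each is the 250 bases before the gene start of the count table (Sscrofa11.1), 5′ to 3′ on the strand of the gene, at chr2:61273140-61273389 (minus strand), chr1:248609575-248609824 (minus strand) and chr10:66488141-66488390 (plus strand), with matches of the MEF2 consensus in capitals.
KLF2: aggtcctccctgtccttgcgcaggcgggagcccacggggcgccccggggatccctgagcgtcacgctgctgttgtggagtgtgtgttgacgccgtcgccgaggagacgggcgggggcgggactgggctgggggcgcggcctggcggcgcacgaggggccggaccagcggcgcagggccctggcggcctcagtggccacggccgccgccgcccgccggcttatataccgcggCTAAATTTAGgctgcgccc
KLF4: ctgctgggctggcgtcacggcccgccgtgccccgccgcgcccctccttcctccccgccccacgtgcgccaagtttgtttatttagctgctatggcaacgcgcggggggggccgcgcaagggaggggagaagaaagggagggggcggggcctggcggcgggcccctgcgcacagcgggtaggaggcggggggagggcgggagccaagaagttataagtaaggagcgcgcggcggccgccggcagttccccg
KLF6: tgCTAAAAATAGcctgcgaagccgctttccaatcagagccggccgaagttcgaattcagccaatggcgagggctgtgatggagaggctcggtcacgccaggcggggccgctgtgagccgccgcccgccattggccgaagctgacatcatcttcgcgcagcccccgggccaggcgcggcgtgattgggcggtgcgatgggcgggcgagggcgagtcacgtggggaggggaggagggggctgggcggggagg

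The MEF2 consensus was found on either strand in 2 of the 9 windows, against 2.9% of the windows of 20273 protein-coding genes. In KLF2 the match ran from 19 to 10 bases before the start, and in KLF6 from 248 to 239 bases before it. The GC box GGGCGG, searched on both strands, was present in 7 of the 9 windows, against 45.1% of all windows, and was absent from those of KLF7 and KLF10. The CCAAT box, searched in the same way, was present in 5 of the 9, against 31.2%. In KLF6 a CCAAT box 69 to 65 bases before the start overlapped a GC box at 66 to 61, and the MEF2 matches overlapped neither motif. The GC content of the 9 windows was 44% (KLF7) to 82.8% (KLF3), against a median of 58.0%. A match is only a match of letters. The start in the RefSeq annotation lay 102 bases downstream of the one used for KLF2, at the same base for KLF4 and, still downstream, 54 bases for KLF6, 14 for KLF11, 181 for KLF3 and 212 for KLF5. It lay 330 bases downstream for KLF13, 8773 for KLF10 and 156024 for KLF7, farther than the length of the window, so that the windows of these 3 may not be the promoters in use, and the counts over 9 windows include them.

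The 6 libraries of GS pigs 9 and 17 held 26335584 to 41802541 counts, the 9 of GS pigs 44, 55 and 77 held 51708598 to 67522703, and the 12 PD libraries held 14650700 to 21820935. No PD library reached the depth of any GS library, so that depth and group cannot be told apart. A library stood apart from its group, that of PD pig 2 at 12h: its median correlation with the other PD libraries at 12h was 0.61, against 0.815 to 0.956 for all other libraries within their groups, and its mitochondrial genes took 1.65% of counts, against 5.95 to 8.84% in the other PD libraries at 12h. Its summed markers stood apart as well, with 82832 CPM for alveolar epithelium (18974 to 27445 CPM in the other PD libraries at 12h), 364 CPM for neutrophils (54.6 to 111 CPM) and 330 CPM for red cells (7.88 to 11.3 CPM). It held the lowest PD level at 12h of 7 of the 9 factors, all but KLF2 and KLF11, and the part of its cell makeup in those levels was not tested. The share of all genes lowest in this library was not counted, so the 7 are not shown to be particular to the KLF genes. The value of each factor in PD at 12h is given with and without this library. The library of PD pig 4 at 0h had the lowest correlation among the rest (0.815, against 0.922 to 0.941 for the other PD libraries at 0h), with alveolar markers of 73665 CPM (26701 to 46482 CPM in the others) and smooth muscle markers of 486 CPM (1582 to 2065 CPM). It held the lowest PD level at 0h of 7 of the 9, all but KLF7 and KLF11, and is the baseline of that pig in every PD comparison with 0h. Here too the share of all genes was not counted. Defining markers of endothelium (8 of 8), macrophages (7 of 7) and alveolar epithelium (9 matched of 10) had over 3 counts in every library. In such bulk tissue, fewer cells of a type and less RNA per cell cannot be told apart. Levels are given as CPM, the count of a gene relative to the total of its library after scaling by TMM factors. A gene was called when its Benjamini-Hochberg adjusted p, over all genes tested, was under 0.05 and its fitted fold change at least 2 (edgeR quasi-likelihood test with the pig as a block). Levels are compared between libraries and never between genes, because a gene length was not at hand for every member.

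**Figure D1:**
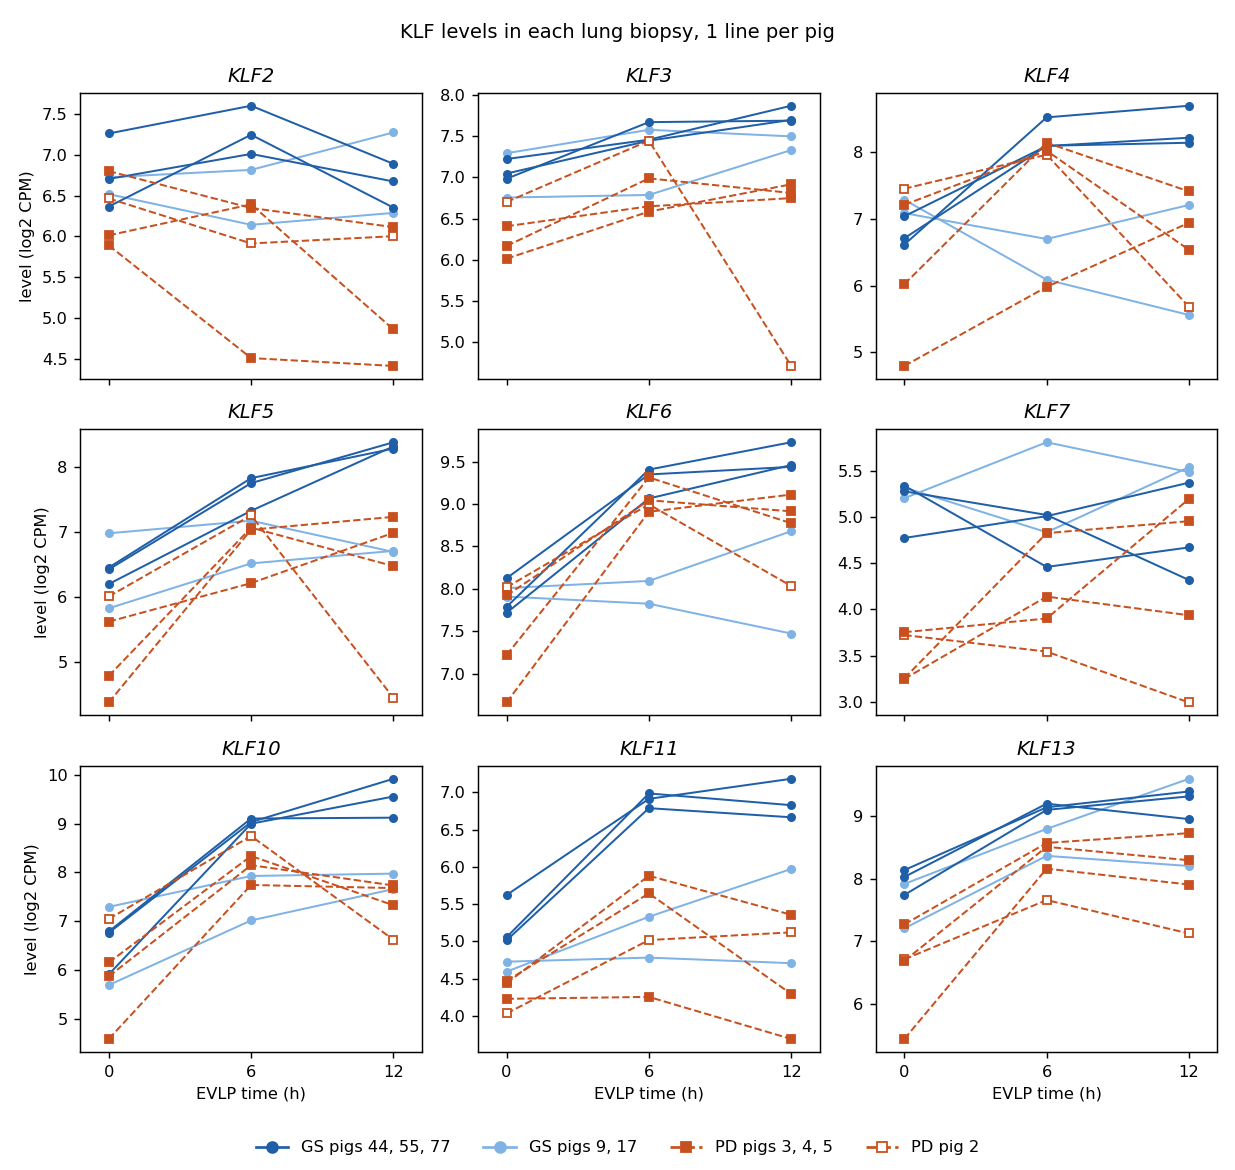
Level of each KLF gene in each of the 27 biopsies, as log2 CPM on the vertical axis, against EVLP time in hours. Each line is 1 pig (dark blue, GS pigs 44, 55 and 77. Light blue, GS pigs 9 and 17. Orange dashes, PD, with open symbols for pig 2). KLF10 and KLF13 lie above the first level of the same pig at both later times in nearly all pigs, while KLF2 does not. Between the later times KLF10 falls in every PD pig, least in pig 4, and the share of all genes that do so was not counted.

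During GS EVLP, 3 of the 9 factors rose at 6h and 4 at 12h, and none fell. KLF10 rose most (3.48-fold at 6h and 4.67-fold at 12h), KLF11 and KLF13 rose about as much as each other at both times, and KLF5 joined them at 12h. Of all genes tested, 5.50% were called higher at 6h and 6.99% at 12h. The median log2 fold change of the 9 factors was 0.74 at 6h and 0.94 at 12h, against −0.05 and −0.08 over all 18594 genes.

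In the PD group none of the 9 passed the test at 6h (edgeR, adjusted p of 0.0904 to 0.662), and 1, KLF13, rose at 12h. At 6h 4 of the 9 had an unadjusted p under 0.05, as did 1463 of all 15545 genes tested. Over all genes the test called 0.135% higher at 6h and 3.22% higher at 12h. The median log2 fold change of the 9 was 1.05 at 6h and 0.80 at 12h, against −0.02 and −0.05 over all 15545 genes tested. DESeq2 called 3 of the 9 higher at 6h (KLF6, KLF10 and KLF13) and the same 3 at 12h, while it called 2.05% of all genes higher at 6h and 8.77% at 12h. Without the library of PD pig 2 at 12h, edgeR called 4 higher at 6h (KLF5, KLF6, KLF10 and KLF13) and, at 12h, 5 higher (those and KLF7) and 1 lower (KLF2). In that fit 1.30% of all genes were called higher at 6h, and 11.9% were called higher and 14.3% lower at 12h, so the counts over all genes grew together with those of the members. Without PD pig 4, none of the 9 was called at 6h or 12h, and the values at 12h were lower for KLF10 (0.98), KLF6 (0.90), KLF5 (0.76) and KLF4 (−0.32), and KLF13 (1.22), not KLF10, had the largest. In that fit 0 of all genes were called at 6h and 399 at 12h.

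**Figure D2:**
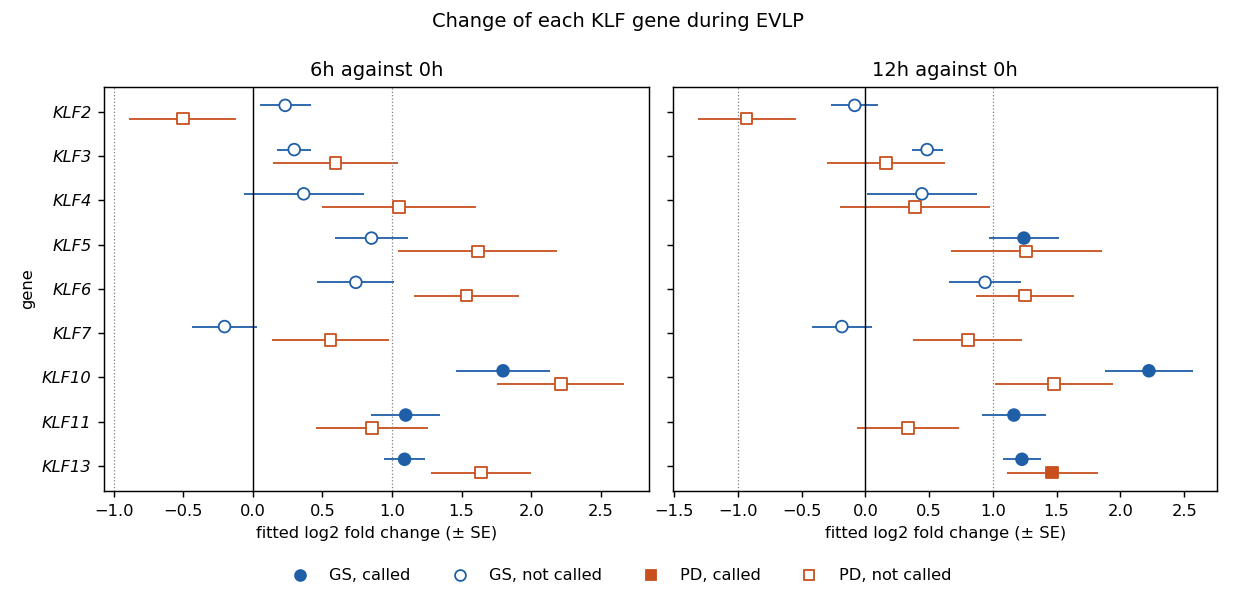
Fitted log2 fold change against 0h of each KLF gene, with its SE as a bar, in GS (blue circles) and PD (orange squares) at 6h and 12h. Filled symbols were called, dotted lines mark a 2-fold change, and the PD bars are longer than the GS bars for every gene.

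KLF2 (ENSSSCG00000038911, chromosome 2, 61270714 to 61273139) is the endothelial flow sensor of the family, and it is also expressed in resting lymphocytes. In GS its level in pigs 9, 17, 44, 55 and 77 was 91.6, 106, 153, 104 and 82.5 CPM at 0h, 70.6, 113, 194, 129 and 152 CPM at 6h, and 78.1, 155, 118, 102 and 81.7 CPM at 12h. In PD its level in pigs 2, 3, 4 and 5 was 88.3, 64.6, 59.3 and 111 CPM at 0h, 60.3, 84.0, 22.8 and 81.4 CPM at 6h, and 64.1, 29.0, 21.3 and 69.2 CPM at 12h. The GS values overlapped at all 3 times, whereas in PD every pig was lower at 12h than at 0h. All PD values at 12h lay below all GS values at 12h, but the share of all genes for which this held was not counted. At 0h, when KLF2 overlapped between the groups, PD levels lay below all GS levels for 18.9% of all genes.

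The fitted log2 fold change of KLF2 at 12h was −0.93 ± 0.38 (SE) in PD (adjusted p = 0.163, edgeR) and −0.08 ± 0.18 in GS (adjusted p = 0.738). Without the library of PD pig 2 at 12h, KLF2 fell at 12h in PD (log2 fold change −1.17, adjusted p = 0.0323), whereas with all 3 libraries of that pig left out it was −1.17 (adjusted p = 0.0526) and was not called. The log2 ratios of 12h to 0h in single pigs did not overlap between the groups, with −1.48 to −0.46 in PD and −0.37 to 0.55 in GS. KLF2 was the only one of the 9 factors of which this was true, while 2.19% of all genes had ratios without overlap at 12h. The difference did not pass correction over all genes, either by an exact two-sided Wilcoxon test (p = 0.0159, the smallest that 5 against 4 pigs can give, adjusted p = 0.734) or in the edgeR interaction (−0.87 ± 0.39, p = 0.0369, adjusted p = 0.826). In PD the summed level of 8 lymphocyte markers was 192 to 316 CPM at 0h and 118 to 165 CPM at 12h, without overlap, and that of 8 endothelial markers was 1649 to 1971 CPM at 0h and 1303 to 2369 CPM at 12h. In GS the lymphocyte markers were 235 to 407 CPM at 0h and 123 to 306 CPM at 12h, with 2 of the 8 called lower at 12h (8.66% of all genes). In PD 2 of the 8 were called lower at 12h as well (2.76% of all genes). The part of these cells in the KLF2 values was not tested.

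KLF4 (ENSSSCG00000005437, chromosome 1, 248604820 to 248609574) acts beside KLF2 in endothelium and is also an early gene of macrophages and epithelium. In GS its level in pigs 9, 17, 44, 55 and 77 was 156, 136, 132, 105 and 98.0 CPM at 0h, 68.1, 104, 273, 273 and 367 CPM at 6h, and 47.2, 148, 297, 282 and 414 CPM at 12h. In PD its level in pigs 2, 3, 4 and 5 was 175, 148, 27.8 and 65.0 CPM at 0h, 249, 259.7, 63.2 and 282 CPM at 6h, and 51.4, 92.8, 123 and 170.2 CPM at 12h. Pigs 44, 55 and 77 were higher at 6h and 12h than any GS pig at 0h, pig 9 was lower at both, and in PD all 4 pigs were higher at 6h than at 0h while 2 of the 4 were lower at 12h.

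KLF4 was not called in any comparison with 0h over all pigs. Its fitted log2 fold change was 0.37 ± 0.43 at 6h and 0.44 ± 0.43 at 12h in GS, and 1.05 ± 0.55 and 0.39 ± 0.59 in PD (adjusted p of 0.437 to 0.733). Without the library of PD pig 2 at 12h the PD value at 12h was 0.90 (adjusted p = 0.175). In the fit on GS pigs 44, 55 and 77 only, an alternative chosen after seeing the data, KLF4 was called at 6h (1.43, adjusted p = 0.000696) and 12h (1.52, adjusted p = 0.000358), and in the fit on pigs 9 and 17 only its values were −0.87 and −0.85. Because the pigs were set apart after the data were seen, these adjusted p are no independent test. With pig 9 alone left out it was called at 12h (1.101, adjusted p = 0.0154).

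The genes known as the arm upstream of KLF2 and KLF4 were a list of 14, all of them tested. The counts of this and the later lists stand beside the shares of all genes, which in GS were 5.50% called higher and 5.56% lower at 6h and 6.99% higher and 8.66% lower at 12h, and in PD 0.135% higher at 6h and 3.22% higher and 2.76% lower at 12h. In GS 1 of the 14 rose and 1 fell at each time, which is near these shares, with a list median of 0.14 at 6h and 0.19 at 12h, and in PD none passed at 6h or 12h (medians 0.05 and 0.03). HEG1, the transmembrane partner of the cerebral cavernous malformation complex, rose in GS (log2 fold change 1.24 ± 0.17 at 6h and 1.49 ± 0.17 at 12h, adjusted p = 0.000511 and 9.1e-05). KRIT1, a subunit of that complex, fell in GS (−1.27 ± 0.29 and −1.44 ± 0.30, adjusted p = 0.00685 and 0.00255), and PDCD10, another subunit, was 0.50 and 0.63, under the 2-fold threshold. In PD the values at 12h were 1.30 for HEG1 (adjusted p = 0.107), −1.76 for KRIT1 (0.0904) and 0.87 for PDCD10 (0.472).

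Endothelial genes that KLF2 and KLF4 are known to raise, 8 in number, had 2 called higher and none lower in GS at 6h and at 12h (list medians 0.45 and 0.48), none called in PD at 6h (median 1.18) and 1 higher in PD at 12h (median 0.58). In GS pigs 44, 55 and 77 alone, 4 were called higher at 6h and 2 at 12h (medians 0.80 and 0.60, with 8.03% and 10.3% of all genes called higher). In pigs 9 and 17 alone, 1 was called higher at each time (medians 0.068 and 0.64, with 2.81% and 4.07% of all genes). PLAT, tissue plasminogen activator, rose in GS at 6h (2.30 ± 0.23, adjusted p = 0.000109), in GS at 12h (2.11 ± 0.22, adjusted p = 7.69e-05) and in PD at 12h (2.83 ± 0.53, adjusted p = 0.02). NPPC, C-type natriuretic peptide, rose in GS (1.91 ± 0.34 and 1.93 ± 0.34, adjusted p = 0.002 and 0.00106). NOS3, endothelial nitric oxide synthase, was not called, with 0.50 in GS and −0.16 in PD at 12h, nor was THBD, thrombomodulin, with 0.47 and 0.21. TEK, the angiopoietin receptor, passed the adjusted p in GS but not the 2-fold threshold (−0.50 and −0.62).

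Of the 8 endothelial genes that KLF2 and KLF4 are known to lower, 3 rose in GS at 6h and 4 at 12h, and 1 rose in PD at 6h and 5 at 12h, with none called lower in these fits (all genes called higher, 5.50%, 6.99%, 0.135% and 3.22%). The list medians were 1.13, 1.28, 1.75 and 2.10, the largest of the 7 lists in all 4 comparisons with 0h over all pigs. The lists were chosen with earlier results of these data known, so this rank is no test. In GS pigs 44, 55 and 77 alone, 5 of the 8 were called higher at each time (medians 1.43 and 1.596, with 8.03% and 10.3% of all genes called higher). In pigs 9 and 17 alone, 1 was called higher and 1 lower at 6h (median 0.55, with 2.81% of all genes called higher and 2.24% lower). At 12h 1 was called higher in these pigs (4.07% of all genes) and the median was 0.078. This was below those of the raised list (0.64), of the cofactors described further on (0.33) and of the upstream arm (0.17). F3, tissue factor, rose at 12h in GS (1.24 ± 0.24) and PD (1.71 ± 0.40, adjusted p = 0.0342). IL6 rose in all 4 comparisons (2.23 and 2.13 in GS, 3.77 and 4.51 in PD, adjusted p of 0.00357 to 0.0176), and these genes are also known targets of inflammatory signals and are made by cells other than endothelium. SELE, the adhesion molecule E-selectin, rose in PD at 12h (4.68, adjusted p = 0.0441) and was 1.63 in GS (adjusted p = 0.139). In the fit without the library of PD pig 2 at 12h, in which more of all genes were called as well (11.9% higher and 14.3% lower at 12h), the counts of this list in PD were 3 and 6, those of the raised list were 1 and 3 higher (with 1 lower at 12h), and those of the upstream arm were 0 and 3 higher (with 1 lower at 12h).

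**Figure D3:**
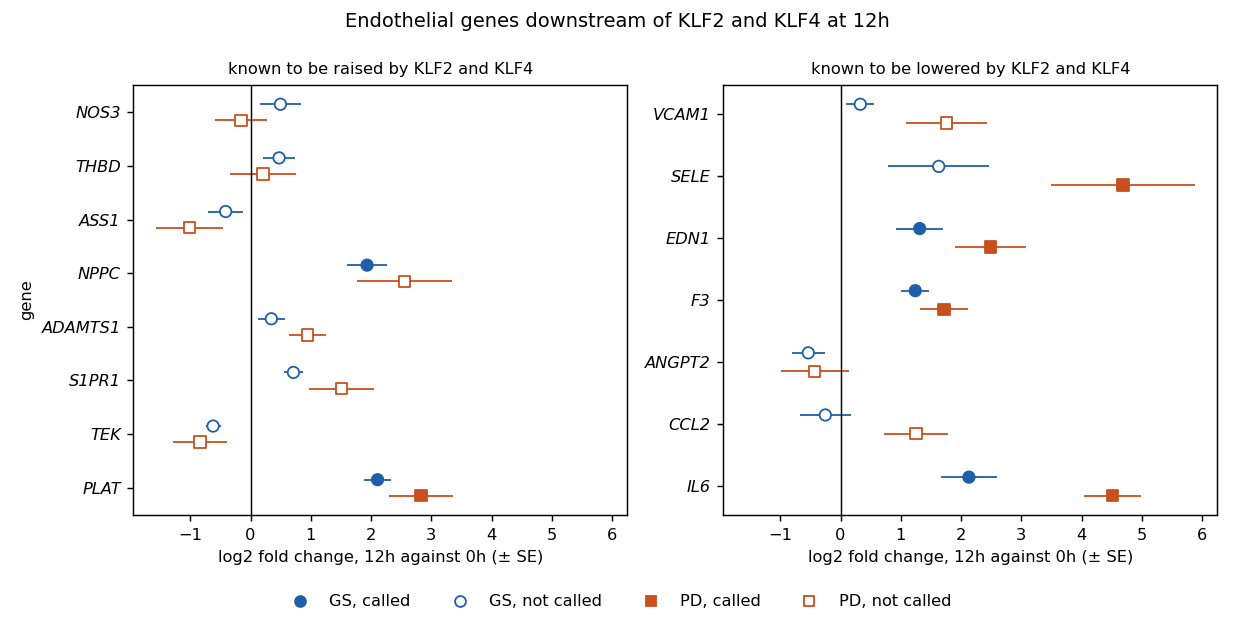
Fitted log2 fold change at 12h against 0h (± SE) of the 8 endothelial genes known to be raised (left) and 7 of the 8 known to be lowered (right) by KLF2 and KLF4, in GS (blue circles) and PD (orange squares). Filled symbols were called, and on the right 3 of the 7 shown are filled in GS and 4 in PD. In the whole list of 8, 4 were called higher in GS and 5 in PD.

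KLF10 (ENSSSCG00000027480, chromosome 4, 34421359 to 34436009), the TGF-β-inducible early gene, had the largest fitted log2 fold change of the 9 in both groups at both times, in PD at 12h by a margin far under its SE over KLF13. In GS its level in pigs 9, 17, 44, 55 and 77 was 157, 51.7, 60.2, 111 and 109 CPM at 0h, 243, 129, 511, 549.9 and 523 CPM at 6h, and 252, 202, 751, 556 and 966 CPM at 12h. The PD pigs 2, 3, 4 and 5 had 132, 71.3, 24.1 and 58.5 CPM at 0h, 429, 323, 214 and 283 CPM at 6h, and 98.5, 161, 205 and 213 CPM at 12h. Every pig was higher at 6h than at 0h, and in PD all levels at 6h lay above all levels at 0h, while at 12h pig 2 was lower than at its own 0h.

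KLF10 rose in GS, with a log2 fold change at 6h of 1.80 ± 0.34 (adjusted p = 0.0025) and at 12h of 2.22 ± 0.34 (adjusted p = 0.000508). In PD the 6h value was 2.21 ± 0.46 (adjusted p = 0.0904) and the 12h value 1.48 ± 0.46 (adjusted p = 0.0804). Without the library of PD pig 2 at 12h it was called at both times (2.26, adjusted p = 0.00501, and 1.90, adjusted p = 0.00574). DESeq2 called KLF10 in PD at both times with every library kept (adjusted p = 0.000178 and 0.00922).

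KLF11 (ENSSSCG00000038643, chromosome 3, 126418996 to 126429904), the second TGF-β-inducible member, had levels in GS pigs 9, 17, 44, 55 and 77 of 26.5, 24.2, 49.2, 33.3 and 32.3 CPM at 0h, 27.5, 40.2, 120.3, 127 and 110.4 CPM at 6h, and 26.1, 62.7, 145, 113 and 101.4 CPM at 12h. In PD its level in pigs 2, 3, 4 and 5 was 16.4, 22.2, 18.8 and 21.7 CPM at 0h, 32.4, 49.99, 19.1 and 58.9 CPM at 6h, and 34.8, 19.6, 12.9 and 41.0 CPM at 12h. In GS pig 9 stayed at its 0h level, and at 12h in PD 2 pigs were above and 2 below their own 0h.

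KLF11 rose in GS by 1.098 ± 0.25 at 6h (adjusted p = 0.0067) and 1.16 ± 0.25 at 12h (adjusted p = 0.00324). In PD the log2 fold change was 0.86 ± 0.40 at 6h (adjusted p = 0.54) and 0.33 ± 0.40 at 12h (adjusted p = 0.658), the latter 0.021 (adjusted p = 0.971) without the library of PD pig 2 at 12h. The call at 6h in GS was lost without pig 55 (0.90) or without pig 77 (0.95), each time because the value went under the 2-fold threshold, and in the fit without a pig block (1.32, adjusted p = 0.0658). A list of 9 other genes of TGF-β signaling held early targets together with parts of the pathway itself. None of the 9 was called in GS at 6h or 12h (medians 0.48 and 0.47) or in PD at 6h (0.78), and 1 rose in PD at 12h (0.72). In the fits on parts of the GS pigs, 3 of the 9 were called higher at 6h and 2 at 12h in pigs 44, 55 and 77 (medians 0.60 and 0.66), beside 8.03% and 10.3% of all genes. In pigs 9 and 17, 3 and 2 were called lower (medians −0.20 and −0.10), beside 2.24% and 3.57% of all genes. TGFBR1, the type I receptor, was 0.48 and 0.55 in GS, SMAD3, a signal transducer, 0.69 and 0.93, and PMEPA1, a target that dampens the pathway, 0.83 and 0.47, all under the 2-fold threshold. Without the library of PD pig 2 at 12h, 4 of the 9 rose in PD at 12h, against 11.9% of all genes.

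KLF13 (ENSSSCG00000026006, chromosome 1, 143493527 to 143540563), a factor also known from the late activation of T lymphocytes, had levels in GS pigs 9, 17, 44, 55 and 77 of 148, 242, 282, 214 and 261 CPM at 0h, 330.3, 446, 566, 550.5 and 589.6 CPM at 6h, and 295, 777, 675, 639.5 and 497 CPM at 12h. The level in PD pigs 2, 3, 4 and 5 was 105, 154, 43.2 and 103 CPM at 0h, 202, 381, 287 and 365 CPM at 6h, and 139, 425, 240.2 and 315 CPM at 12h. It was higher than at 0h in all 9 pigs at both times, and in GS all levels at 6h and 12h were above all levels at 0h.

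KLF13 rose in GS at 6h by 1.09 ± 0.15 (adjusted p = 0.00048), in GS at 12h by 1.23 ± 0.15 (adjusted p = 0.000127) and in PD at 12h by 1.46 ± 0.36 (adjusted p = 0.0373). Its value in PD at 6h was 1.64 ± 0.36 (adjusted p = 0.113). The PD call at 12h was lost without pig 3 (adjusted p = 0.25), pig 4 (0.122) or pig 5 (0.316), with values of 1.22 to 1.46, and was kept without pig 2 (1.78, adjusted p = 0.0114) and without its 12h library alone (1.66, adjusted p = 0.00719). SIN3A, the corepressor that KLF11 and KLF13 recruit, was 0.44 ± 0.13 and 0.53 ± 0.13 in GS, and FBXW7, the ligase subunit that marks KLF5 and other KLF proteins for degradation, 0.46 and 0.51, all under the 2-fold threshold. None of the 11 cofactors and ligases was called in GS or PD at either time (medians −0.01 to 0.23).

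KLF5 (ENSSSCG00000035101, chromosome 11, 45369797 to 45388314), an epithelial factor needed for lung development, had levels in GS pigs 9, 17, 44, 55 and 77 of 125.9, 56.6, 85.7, 73.4 and 87.4 CPM at 0h, 144, 91.4, 215, 160.0 and 227 CPM at 6h, and 103, 104, 332, 318 and 310.3 CPM at 12h. In PD its level in pigs 2, 3, 4 and 5 was 64.3, 49.1, 20.8 and 27.6 CPM at 0h, 152, 74.1, 131 and 134 CPM at 6h, and 21.8, 127, 150.1 and 88.7 CPM at 12h. At 12h PD pig 2 was below all PD pigs at 0h but one, whereas the other 3 were above all of them.

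KLF5 rose in GS at 12h by 1.24 ± 0.27 (adjusted p = 0.00378). In GS the summed level of 9 alveolar epithelial markers was 7864 to 10740 CPM at 0h and 8086 to 17638 CPM at 12h, higher in every pig. At 12h in GS 2 of these 9 were called higher (6.99% of all genes), and 2 of 5 airway epithelial markers were called lower (8.66%). In PD none of either list was called at 12h. The part of these cells in the KLF5 values was not tested. At 6h KLF5 was 0.85 ± 0.27 in GS (adjusted p = 0.0299), under the 2-fold threshold, and it was called there without pig 9 (1.107, adjusted p = 0.00265). In PD the 6h value was 1.62 ± 0.57 (adjusted p = 0.406) and the 12h value 1.26 ± 0.59 (adjusted p = 0.216), and the gene was called at both without the library of PD pig 2 at 12h (1.66, adjusted p = 0.0312, and 1.81, adjusted p = 0.00742).

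KLF6 (ENSSSCG00000035212, chromosome 10, 66488391 to 66497844), an early gene of tissue injury, had levels in GS pigs 9, 17, 44, 55 and 77 of 240.5, 258, 210.4, 279 and 221 CPM at 0h, 227, 273, 536, 652 and 678 CPM at 6h, and 178, 410.1, 704, 694 and 848 CPM at 12h. PD pigs 2, 3, 4 and 5 had 259, 243, 101.2 and 149 CPM at 0h, 511, 528, 481 and 636 CPM at 6h, and 262, 482, 553 and 438 CPM at 12h. All PD pigs at 6h lay above all PD pigs at 0h, and in GS pigs 9 and 17 stayed near their 0h level at 6h while the other 3 did not.

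KLF6 was not called in any comparison over all pigs in the main edgeR fits, each group alone on its 3 times with the pig block and the 2-fold threshold. In GS it was 0.74 ± 0.28 at 6h (adjusted p = 0.0601) and 0.94 ± 0.28 at 12h (adjusted p = 0.0183, under 2-fold), and in PD 1.53 ± 0.38 (adjusted p = 0.171) and 1.25 ± 0.38 (adjusted p = 0.0733). DESeq2 called it in PD at 6h (1.55, adjusted p = 0.00444) and 12h (1.30, adjusted p = 0.00802), edgeR without the block called it in PD at 12h (1.22, adjusted p = 0.0361), and edgeR with all 27 libraries in one fit called it in PD at 6h (1.53, adjusted p = 0.0247) and 12h (1.25, adjusted p = 0.0168). Without the library of PD pig 2 at 12h it was called in PD at both times (1.56, adjusted p = 0.0282, and 1.51, adjusted p = 0.0116). In the alternatives tried, KLF6 at 12h in GS was called in 6 of 14, among them the fits without a pig block, on the 2 time points only (1.04, adjusted p = 0.0378), without pig 9 and without pig 17, and at 6h it was called without pig 9 (1.04, adjusted p = 0.00807).

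KLF3 (ENSSSCG00000036488, chromosome 8, 30024797 to 30060979) is a repressor that binds the corepressor CtBP. Its levels ran from 108 to 157 CPM in GS at 0h, 110.4 to 204 CPM at 6h and 161 to 234 CPM at 12h, and the log2 fold change of 0.48 ± 0.12 at 12h passed the adjusted p (0.00775) but not the 2-fold threshold. In PD they ran from 64.6 to 104 CPM at 0h, 96.0 to 174 CPM at 6h and 26.2 to 121 CPM at 12h, the lowest being pig 2 and the other 3 being 108 to 121 CPM. The PD log2 fold changes were 0.59 ± 0.45 at 6h and 0.16 ± 0.46 at 12h, neither of them called. The 12h value was 0.62 (adjusted p = 0.113) without the library of PD pig 2 at 12h, and −0.09 without PD pig 4.

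KLF7 (ENSSSCG00000029998, chromosome 15, 110286436 to 110536189), best known from neurons and fat cells, had levels of 27.3 to 40.4 CPM in GS at 0h, 22.0 to 55.9 CPM at 6h and 19.9 to 46.5 CPM at 12h, with log2 fold changes of −0.20 ± 0.23 and −0.18 ± 0.23. In PD its levels were 9.51 to 13.5 CPM at 0h, 11.7 to 28.3 CPM at 6h and 7.98 to 36.6 CPM at 12h, with log2 fold changes of 0.56 ± 0.42 and 0.80 ± 0.43. None of these was called with all libraries, and without the library of PD pig 2 at 12h the PD value at 12h was called (1.12, adjusted p = 0.0471).

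Of 8 other KLF genes 5 could be tested, and 6 of 9 SP genes, the sister family that binds the same GC boxes. KLF9, known as a glucocorticoid-responsive member, rose in GS (1.81 ± 0.17 at 6h and 2.01 ± 0.17 at 12h, adjusted p = 0.000105 and 3.71e-05) and in PD at 12h (1.86 ± 0.46, adjusted p = 0.0409), and was 1.80 ± 0.46 in PD at 6h (adjusted p = 0.188). KLF8, a repressor, fell at 12h in GS (−1.06 ± 0.36, adjusted p = 0.0326) and PD (−2.28 ± 0.50, adjusted p = 0.0301), and KLF12, a repressor as well, was −0.74 ± 0.23 and −1.19 ± 0.51. Of the SP genes 1, SP7, an osteoblast factor, fell in GS at 6h (−1.13 ± 0.31) and 12h (−1.30 ± 0.31), and SP4 and SP1 were −0.75 and −0.75 at 6h, under 2-fold. The list median of the SP genes was −0.66 in GS at 6h, opposite in sign to that of the KLF members, and −0.55 at 12h, whereas in PD it was 0.50 at 6h and −0.04 at 12h. The median in PD at 12h was 0.43 without the library of PD pig 2 at that time, and 1 of the 6 was called lower, beside 14.3% of all genes.

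The rise of several members in GS was not shared by all pigs. The log2 ratios to 0h of pigs 9 and 17 and those of pigs 44, 55 and 77 did not overlap for 6 of the 9 factors at 6h and for 6 at 12h. The same was true of 50.0% of all genes at 6h and 38.2% at 12h, so these counts show nothing particular to the KLF genes. At 6h KLF4 was −1.20 and −0.39 in pigs 9 and 17 and 1.05 to 1.90 in the other 3. KLF6 was −0.08 and 0.08 against 1.22 to 1.62, and KLF10 0.63 and 1.32 against 2.27 to 3.09. KLF13 overlapped at both times, with 0.88 and 1.16 against 1.01 to 1.36 at 6h. The split runs with the depth of the libraries given above, and also with markers: at 6h the summed level of 5 fibroblast markers was 1278 and 1341 CPM in pigs 9 and 17 and 2330 to 5338 CPM in the others, that of 5 smooth muscle markers 716 and 1418 against 2405 to 3045 CPM, that of 8 endothelial markers 1578 and 1968 against 2816 to 3421 CPM, that of 8 lymphocyte markers 156 and 179 against 237 to 332 CPM, that of 3 neutrophil markers 66.9 and 85.8 against 87.5 to 156 CPM and that of 7 macrophage markers 2655 and 2983 against 5445 to 6601 CPM. At 0h the endothelial markers (1847 and 2447 against 2609 to 2887 CPM) and the lymphocyte markers (235 and 290 against 299 to 407 CPM) were already apart, as were the alveolar markers (7864 and 9175 against 9753 to 10740 CPM), while those of fibroblasts, smooth muscle, neutrophils and macrophages overlapped. Markers of alveolar epithelium, airway epithelium and red cells overlapped at 6h between pigs 9 and 17 and the others. The part of depth and of cell makeup in the split was not tested. In the fits on each set alone, added after the data were seen, pigs 44, 55 and 77 had 6 members called at 6h (KLF4, KLF5, KLF6, KLF10, KLF11 and KLF13, with 8.03% of all genes called higher) and the same 6 at 12h (10.3% of all genes). Pigs 9 and 17 had 0 at 6h (2.81% of all genes) and 2 at 12h, KLF10 and KLF13 (4.07% of all genes). With only 2 pigs in this fit, the 0 at 6h does not show that no member rose in them. At 6h the log2 ratios of these pigs were 0.88 and 1.16 for KLF13, and −1.20 and −0.39 for KLF4.

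**Figure D4:**
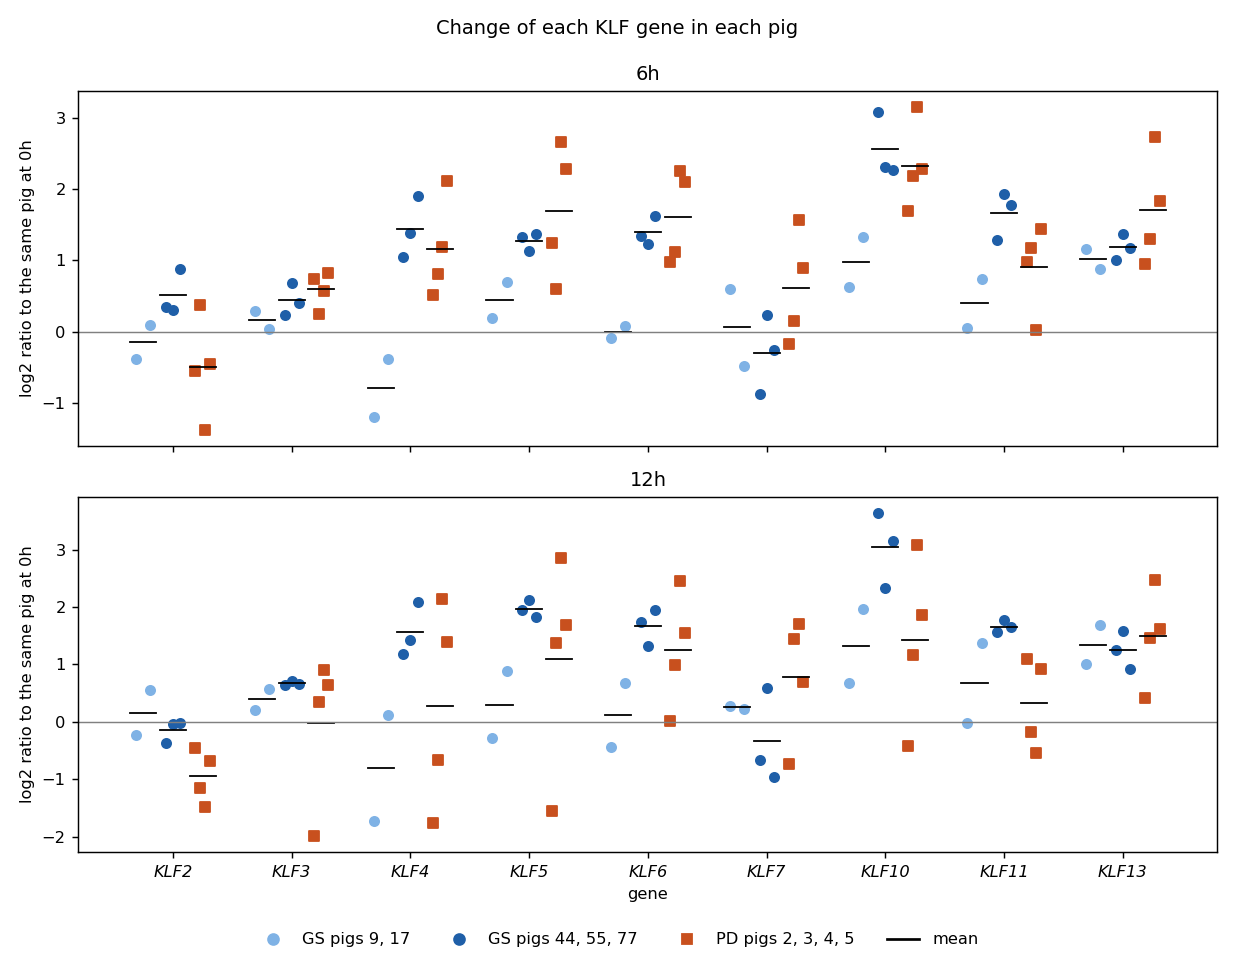
Log2 ratio of each KLF gene to the same pig at 0h, for 6h (top) and 12h (bottom), with 1 point a pig and the mean as a black bar. Light blue points (GS pigs 9 and 17) lie below dark blue points (GS pigs 44, 55 and 77) for KLF4, KLF5, KLF6, KLF10 and KLF11 at both times, and at 12h all PD points of KLF2 lie below all GS points.

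The changes of PD and GS were then compared with each other. No member had a significant interaction of group and time, at 6h (adjusted p of 0.783 to 0.914) or at 12h (0.826 to 1.0), and none had one by the exact Wilcoxon test or by DESeq2. Over all 17884 genes edgeR and the Wilcoxon test called 0 at either time, and DESeq2 called 7 at 6h and 15 at 12h. The absence of calls is therefore nothing particular to the KLF genes. For the Wilcoxon test it was also all but fixed beforehand. Its smallest two-sided p with 5 against 4 pigs is 0.0159, which can hardly pass correction over this many genes. At an unadjusted p under 0.05 in edgeR the count of members was 0 at 6h and 1 at 12h, that one being KLF2. Of all genes tested, 1046 at 6h and 1069 at 12h were under that p. The differences, PD minus GS on the log2 scale, were −0.75 (KLF2) to 0.77 (KLF6) at 6h and −0.87 (KLF2) to 0.96 (KLF7) at 12h, with SE of 0.35 to 0.78, and these values do not show that the groups changed alike. At 6h no member had ratios without overlap between the groups, against 3.04% of all genes. Between 6h and 12h no member was called either (edgeR and DESeq2, 0 in each group, none at an unadjusted p under 0.05), with values of −0.32 to 0.43 in GS and −0.73 to 0.25 in PD. Over all genes edgeR called 0 in each group, with 882 in GS and 1562 in PD under that unadjusted p, and DESeq2 called 2 and 235. Within pigs, KLF10 was higher at 12h than at 6h in every GS pig and lower in every PD pig. The PD pigs include pig 2, whose 12h library stood apart, and pig 4, which moved only from 214 to 205 CPM. This pattern was picked after the values were seen, and the groups were not tested against each other for it. The share of all genes with the same pattern was not counted.

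Before EVLP, all 9 factors had a lower fitted level in PD than in GS, and 3 were called: KLF7 (−1.60 ± 0.21, adjusted p = 0.000159), KLF13 (−1.101 ± 0.31, adjusted p = 0.015) and KLF5 (−1.01 ± 0.33, adjusted p = 0.0286). Over all 16477 genes 13.9% were called lower in PD, and the median was 0.00 against −0.64 for the 9. KLF7 was 27.3 to 40.4 CPM in GS and 9.51 to 13.5 CPM in PD. KLF7, KLF3 and KLF11 were lower in every PD pig than in every GS pig, which held for 18.9% of all genes. The call of KLF5 was lost without GS pig 9 (−0.82) or without PD pig 4 (−0.80) or 5 (−0.85), that of KLF13 without PD pig 4 (−0.85, under 2-fold), and that of KLF7 was kept in every alternative. At 0h the summed level of alveolar epithelial markers was 7864 to 10740 CPM in GS and 26701 to 73665 CPM in PD, that of 3 red cell markers 0.354 to 10.6 CPM and 51.0 to 224 CPM, and that of 7 macrophage markers, lower in PD, 3256 to 6289 CPM and 2067 to 2812 CPM. Their part in these differences was not tested, and depth and group cannot be told apart.

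The profiles of the members over the 27 libraries, after the mean of each pig was subtracted, were described by Pearson's r with all 9669 other genes that have a symbol and a mean log2 CPM of at least 3. The libraries share pigs, depth and times, so r is given without a test. The 3 genes most like KLF2 were CAMTA2, HYAL1 and ARAP3 (r of 0.84 to 0.85), and for KLF4 they were CD69, TOB1 and DNAJB4 (0.88 to 0.91). KLF10 was most like TSC22D2, EREG and ARID5B (0.96), and TSC22D2 (0.97) and SGK1 (0.96) were among the 3 genes most like KLF6, so TSC22D2 stood in both. For KLF5 the genes were B3GNT2, MEX3C and SLC31A1 (0.96 to 0.97), for KLF11 CSRNP1, RUNX3 and REM2 (0.88 to 0.92) and for KLF13 MASP2, TRIM56 and SEC14L1 (0.96). KLF3 was most like ND2, a mitochondrial gene, AMIGO2 and PLPP1 (0.93 to 0.96), and both KLF3 and the mitochondrial genes were lowest of their group in PD pig 2 at 12h. For KLF7 the genes were HIVEP1, NIN and MAP3K2 (0.89 to 0.90). Among the members themselves r was highest between KLF6 and KLF10 (0.94) and lowest between KLF2 and KLF7 (−0.60).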

How the data were processed

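Reads of stranded TruSeq libraries were trimmed, aligned with TopHat2 2.0.14 to Ensembl release 101 (Sscrofa11.1) and counted with featureCounts (Subread 1.6.0), according to the methods and the submitters' processing notes. How strand and multi-mapping reads were treated in counting is not given in the sources used here. The values used are the raw counts per gene that the authors deposited, 31908 genes in 27 libraries with 14650700 to 67522703 counts. The members and gene lists were chosen with earlier results of these data known.

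Low genes were removed with filterByExpr and libraries scaled by TMM. The 3 times of a group were then modelled in edgeR 4.0.16 (R 4.3.3) with a replicate block for the pig, and tested by its robust quasi-likelihood method, two-sided. The pairing comes from the design, in which the same animal was sampled at each time. Residual profiles of libraries of the same pig correlated by 0.548 on average in GS, against −0.117 for different pigs. In PD these values were −0.00159 and 0.00845, so that no profile shared within a pig was seen there on average. The interaction used all 27 libraries, and the comparison at 0h used 9 libraries without a block. P-values were adjusted over all genes tested by Benjamini-Hochberg, and calls against 0h and at 0h also needed a 2-fold change. Levels are CPM with a prior count of 0.5. Pigs are the replicates. All 9 members are named, with the 3 genes of each pathway list that have the smallest adjusted p in the 4 comparisons with 0h and the 3 genes most like each member, save 2 genes that are not reported here. NOS3, THBD and SELE were named after their values were seen. Alternatives were DESeq2 1.42.0, its size factors, no filter, no block, other sets of libraries, no fold threshold, an exact Wilcoxon test, a prior count of 2 and each pig left out. Fits without the PD pig 2 library at 12h and on parts of the GS pigs were chosen after seeing the data, so their p-values are no independent test. The scripts were tested on simulated data. Sequences were read from RefSeq's copy of Sscrofa11.1, and protein sequences were not used here.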

Additional observations from a re-analysis of the deposited data

Results flagged for a closer look

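Among 90 groups of 4 or 5 values of the KLF genes, 6 held a value whose gap to the nearest other value was wide for the range of its group by Dixon's criterion, and chance gives about 1 in 20 groups. KLF3 had a log2 CPM of 6.79 in GS pig 17 at 6h (7.45 to 7.67 in the other 4 pigs) and of 4.71 in PD pig 2 at 12h (6.75 to 6.92 in the other 3), the library that stood apart from its group. KLF4 had 5.98 in PD pig 4 at 6h (7.96 to 8.14 in the other 3), and KLF7 had 4.77 in GS pig 55 at 0h (5.20 to 5.34 in the others). The log2 ratio of 12h to 0h in GS pig 9 was 0.20 for KLF3 (0.58 to 0.71 in the other pigs) and −0.020 for KLF11 (1.38 to 1.77).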

How the results depend on the processing

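Of 123 counts of members called under an alternative, all but 22 stayed within 1.5 times the main count, and of 891 values of single members 790 kept their direction and their side of the threshold, 46 passed it newly, 16 lost it and 39 changed sign. Both totals include the comparisons of the changes between the groups, and the 123 also those of 12h against 6h. In these the main fits called 0 of all genes, and the count of members stayed at 0 under every alternative. That they did not move was nearly fixed beforehand and is no sign of stability. All 108 group levels moved by less than the spread between pigs. In PD at 6h, where 0 members were called, DESeq2 called 3, no filter on low counts 1, no replicate block 1 (KLF10, adjusted p = 0.0446), all 27 libraries in one fit 3, only the 2 time points compared 1, and the fit without the PD pig 2 library at 12h 4, while the genes called in all were 428, 103, 100, 479, 139 and 252, against 22. In PD at 12h, where 1 was called, these were DESeq2 3, no replicate block 2 (KLF6 added, adjusted p = 0.0361), all 27 libraries 3, the 2 time points 0 and without that library 6, while the genes called in all were 2560, 1460, 3300, 4 and 4161, against 930. In GS the fit on pigs 44, 55 and 77 called 6 at 6h, and the fit on pigs 9 and 17 called 0 at 6h and 2 at 12h, with 2760, 876 and 1324 genes in all (main 2057 at 6h and 2911 at 12h). Without the replicate block in GS, KLF11 lost its call at 6h (1.32, adjusted p = 0.0658) and KLF6 gained one at 12h (1.14, adjusted p = 0.037). Over all genes the pig block moved the calls from 1123 to 2057 (GS 6h), 1896 to 2911 (GS 12h), 100 to 22 (PD 6h) and 1460 to 930 (PD 12h). At 0h, 5 members were called lower with no fold threshold, as were 3180 of 16477 genes. The cause of these shifts was not tested.

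With each pig left out in turn, the counts ran from 2 to 5 (GS 6h, 5 without pig 9, with 1318 to 2148 genes in all), 4 to 6 (GS 12h, 6 without pig 9, with 2132 to 3533), 0 to 2 (PD 6h, 2 without pig 2, with 98 genes in all and 0 without pig 3, 4 or 5), 0 to 5 (PD 12h, 5 without pig 2 and 0 without pig 3, 4 or 5, fits in which 3826, 0, 399 and 0 of all genes were called) and 1 to 3 (0h, 1 without PD pig 4, with 4320 to 4850). Values that changed sign in this way were not called in any of those fits. Their ranges were −0.23 to 0.024 (KLF2) and −0.36 to 0.013 (KLF7) in GS at 12h, −0.090 to 0.59 (KLF3), −0.32 to 1.001 (KLF4) and −0.0089 to 0.71 (KLF11) in PD at 12h, and −0.56 to 0.12 for KLF4 at 0h. For the difference between the groups they were −0.56 to 0.079 (KLF11) at 6h, and −0.63 to 0.10 (KLF3), −0.82 to 0.55 (KLF4), −0.53 to 0.63 (KLF5), −0.10 to 0.66 (KLF6) and −0.068 to 0.54 (KLF13) at 12h.

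On GS pigs 9 and 17 only, signs changed in GS for KLF2 (−0.17 at 6h, 0.091 at 12h), KLF4 (−0.87 and −0.85), KLF6 (−0.027 at 6h) and KLF7 (0.072 and 0.18), and in the difference between the groups for KLF11 at 6h (0.52) and KLF4 (1.21), KLF5 (0.99) and KLF10 (0.19) at 12h. On GS pigs 44, 55 and 77 only, the difference changed sign for KLF4 (−0.37) and KLF10 (−0.31) at 6h and KLF6 (−0.35) at 12h. Without the PD pig 2 library at 12h it did so for KLF3 (0.12), KLF4 (0.45) and KLF5 (0.55) at 12h. Depth was lower in every PD library than in every GS library, and its part in the wider PD errors was not tested.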
